A study of Mus musculus with 24 samples.

Results

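The genes described here carry glucose into the cell, break it down to pyruvate and lactate, or answer to the hypoxia-inducible factor HIF1. The set was chosen by name as genes of glucose uptake, glycolysis and HIF1 response, and 33 such genes were found among the 23366 genes of the deposited matrices. All 33 passed the low-count filter on both days. They comprise 2 glucose transporters, 16 glycolytic enzymes, 2 PFKFB enzymes, 2 lactate transporters, 1 pyruvate dehydrogenase kinase, HIF1A with 2 of its hydroxylases, and 7 other HIF1 targets. RNA came from CD8+ T cells of C57BL/6 mice, sorted as naive cells from spleen and lymph nodes and stimulated in culture through CD3 and CD28. At day 3 there were 4 groups of 3 libraries. WT cells (E8i-Cre-negative, with both Nr3c1 alleles floxed) were cultured without additions (WT Ctrl) or with 10 nM dexamethasone, a synthetic glucocorticoid (WT Dex). Cells of the same floxed genotype that carried E8i-Cre, a Cre driven in the CD8 T cell lineage, lacked the glucocorticoid receptor gene Nr3c1 by design (cKO) and were cultured in the same 2 ways. At day 9 there were 4 groups of 3 WT libraries: Ctrl, Dex at 10 nM, the cytokine IL27 at 25 ng/ml, or both (Dex+IL27). These cells had been stimulated for 3 days, rested for 3 days in IL2 and stimulated again, with the additions present in both stimulations. Each library was made from 1000 sorted cells. The comparisons address the response of activated CD8+ cells to glucocorticoid and IL27, and its dependence on the receptor gene. No oxygen level is named in the labels.

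Activated CD8+ T cells raise glucose uptake and convert much of the glucose to lactate even when oxygen is present. Glucose enters through the transporters encoded by Slc2a1 (GLUT1) and Slc2a3 (GLUT3), hexokinase traps it, phosphofructokinase sets the main control point, and lactate dehydrogenase and the monocarboxylate transporters end the route. HIF1 is a dimer whose alpha subunit, encoded by Hif1a, is marked for destruction by prolyl hydroxylases of the EGLN family when oxygen is available. In T cells the receptor signal and growth factors also raise HIF1A, and HIF1 acts on many genes of glycolysis as well as on genes of mitochondrial turnover, collagen modification and protein folding.

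HIF1 binds DNA at short sites built around ACGTG or GCGTG, so the members' promoter windows (RefSeq sequences of 300 bases around each start of transcription, mostly before it, build GRCm38.p6) were searched for these letters on both strands. Windows were matched for 31 of the 33 members, with Slc2a3 and Ndrg1 not matched, which gave 45 windows. At least 1 of the 2 motifs occurred in a window of 28 of the 31 genes (90.3%), against 46.7% of all 26994 genes with a window. ACGTG alone occurred for 23 of the 31 (74.2%), against 21.8% of all genes. A gene with more windows has more places for a match. Counted per window, the shares were 80% against 43.8% for either motif and 57.8% against 19.6% for ACGTG. Members were picked by name partly as HIF1 response genes, so these shares are a description and no test of the set. The median GC content was 63.3% in the members' windows and 52.7% in all 32817 windows, and the part of base composition in these shares was not tested. The stretches below end at the base before the start of transcription and show 4 genes that were higher and 4 that were lower at day 9 in cells given both Dex and IL27. Capitals mark ACGTG or GCGTG on either strand (CACGT or CACGC on the strand shown), and a CACGTG run is a match on both strands. A match describes the letters of the window and does not show that a factor binds there.
Bnip3 (chr7:138909507-138909656, minus strand): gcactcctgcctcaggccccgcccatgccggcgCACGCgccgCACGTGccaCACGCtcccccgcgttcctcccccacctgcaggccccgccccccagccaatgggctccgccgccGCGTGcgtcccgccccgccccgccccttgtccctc
P4ha2 (chr11:54100814-54100923, plus strand): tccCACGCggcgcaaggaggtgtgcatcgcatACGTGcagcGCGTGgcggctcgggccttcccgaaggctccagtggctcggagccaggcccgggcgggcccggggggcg
Ankrd37 (chr8:45999851-46000010, minus strand): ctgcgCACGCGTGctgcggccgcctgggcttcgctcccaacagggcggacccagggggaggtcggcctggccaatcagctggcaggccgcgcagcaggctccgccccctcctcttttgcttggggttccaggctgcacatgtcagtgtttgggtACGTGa
Aldoc (chr11:78323013-78323072, plus strand): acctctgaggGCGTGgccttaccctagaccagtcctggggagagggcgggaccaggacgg
Slc2a1 (chr4:119108675-119108744, plus strand): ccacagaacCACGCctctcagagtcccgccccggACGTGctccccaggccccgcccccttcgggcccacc
Hk2 (chr6:82774455-82774514, minus strand): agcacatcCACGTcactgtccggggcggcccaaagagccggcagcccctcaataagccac
Ldha (chr7:46845654-46845803, plus strand): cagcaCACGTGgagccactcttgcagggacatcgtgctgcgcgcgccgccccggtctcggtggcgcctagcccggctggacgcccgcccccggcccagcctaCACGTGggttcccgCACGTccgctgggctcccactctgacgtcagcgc
Slc16a1 (chr3:104638454-104638663, plus strand): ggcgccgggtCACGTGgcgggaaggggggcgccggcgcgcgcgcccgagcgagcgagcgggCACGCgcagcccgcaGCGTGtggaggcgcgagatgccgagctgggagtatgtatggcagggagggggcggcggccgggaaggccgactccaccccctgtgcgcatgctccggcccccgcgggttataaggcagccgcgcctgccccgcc
The stretches were chosen because they hold a motif, and Gpi1, Tpi1 and Eno2 had neither motif in any window.

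Library totals of estimated counts ran from 14221883 to 19018440. Nr3c1 lay between 14.5 and 33.6 CPM (counts scaled to a common library total) in the WT libraries and between 5.49 and 8.45 CPM in the cKO libraries, lower in each cKO library, as labelled. All 9 T cell genes checked were present in every library, with a sum of 2750 to 3770 CPM. The summed level of 13 myeloid and dendritic genes, mostly Cd68 and Itgam, moved with the day 9 groups: it was 3.5 to 5.59 CPM in Ctrl, 12.6 to 14.7 with Dex, 15.1 to 20.1 with IL27 and 23.5 to 26.7 with both, while S100a8 was at 0 and Lyz2 at most 0.104 CPM. The summed level of 6 NK cell genes did too, mostly through the granzyme gene Gzma. It was 84 to 231 CPM in Ctrl, 1930 to 2260 with Dex, 485 to 963 with IL27 and 2070 to 3030 with both. Over all libraries Gzma reached 3020, Eomes 17, Klrc2 8.27, Klrb1c 0.775, Tyrobp 0.191 and Ncr1 0.104 CPM. The summed B cell genes had 16.3 to 18.2 CPM in Ctrl, 19.1 to 24.6 with Dex, 31.2 to 35.8 with IL27 and 24.5 to 25.2 with both. Over all libraries this was mostly Cd79b (6.1 to 21.4 CPM) and Ebf1 (0.362 to 26.2 CPM), with Pax5 at 0. The summed CD4 genes had 15.1 to 25.2, 13.9 to 15.9, 22.4 to 24.3 and 13.6 to 15.4 CPM in the same order of groups. Over all libraries Zbtb7b reached 18.1, Trat1 17.5, Cd40lg 13.4, Foxp3 8.84 and Cd4 3.05 CPM. The ribosomal precursor Rn45s took 9.11% ± 0.15 (SD, n = 3) of counts in Ctrl at day 9, 14.6% ± 0.487 with Dex, 14.1% ± 0.405 with IL27 and 16.0% ± 0.305 with both. The part of these shifts in the results was not tested. Library 1 of the IL27 group stood apart: it was the highest of the 3 for 27 of the 33 genes, which together took 4.34% of its counts against 3.31% and 3.77% in the other 2. Where leaving it out ended a call or moved a change by over 1.5 times, the IL27 value without it is given beside the result. In RNA pooled from sorted cells, fewer cells of a type and less RNA per cell cannot be told apart, and since the labels do not say that libraries came from separate mice or cultures, p-values measure the spread between libraries.

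Levels in untreated cells were compared between genes on the length-corrected FPKM scale. Gapdh, which oxidises glyceraldehyde phosphate, was highest, at 6399, 6173 and 6088 FPKM in the 3 WT Ctrl libraries of day 3 and 5444, 5666 and 5739 FPKM in those of day 9. Ldha, which turns pyruvate into lactate, followed at 3297 ± 105 FPKM (SD, n = 3) at day 3 and 3177 ± 27.0 at day 9. Aldoa, Eno1, Pkm, Pgk1, Tpi1 and Pgam1, enzymes from the aldolase step onward, came next, with day 3 means from 737 to 2021 FPKM. Neighbours in this order did not always differ beyond their spread: Pkm had 1404 to 1492 FPKM at day 3 and Pgk1 had 1334 to 1453. The entry steps were far lower, with Hk1 at 30.0 ± 1.39 and Slc2a1 at 28.9 ± 1.41 FPKM at day 3. Vegfa, the angiogenic growth factor gene often used as a HIF1 readout, was lowest at 0.403 ± 0.10 FPKM at day 3 and 0.397 ± 0.07 at day 9, and no comparison called it. Some levels lay apart between the untreated cells of the 2 days: Hif1a averaged 79.7 FPKM at day 3 and 168 at day 9, Hk2 16.7 and 29.0, Slc2a3 68.7 and 28.2, and Eno2 7.35 and 2.15. Day runs with culture history and with the leading letter of the sample titles, so no test was made of it.

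**Figure D1:**
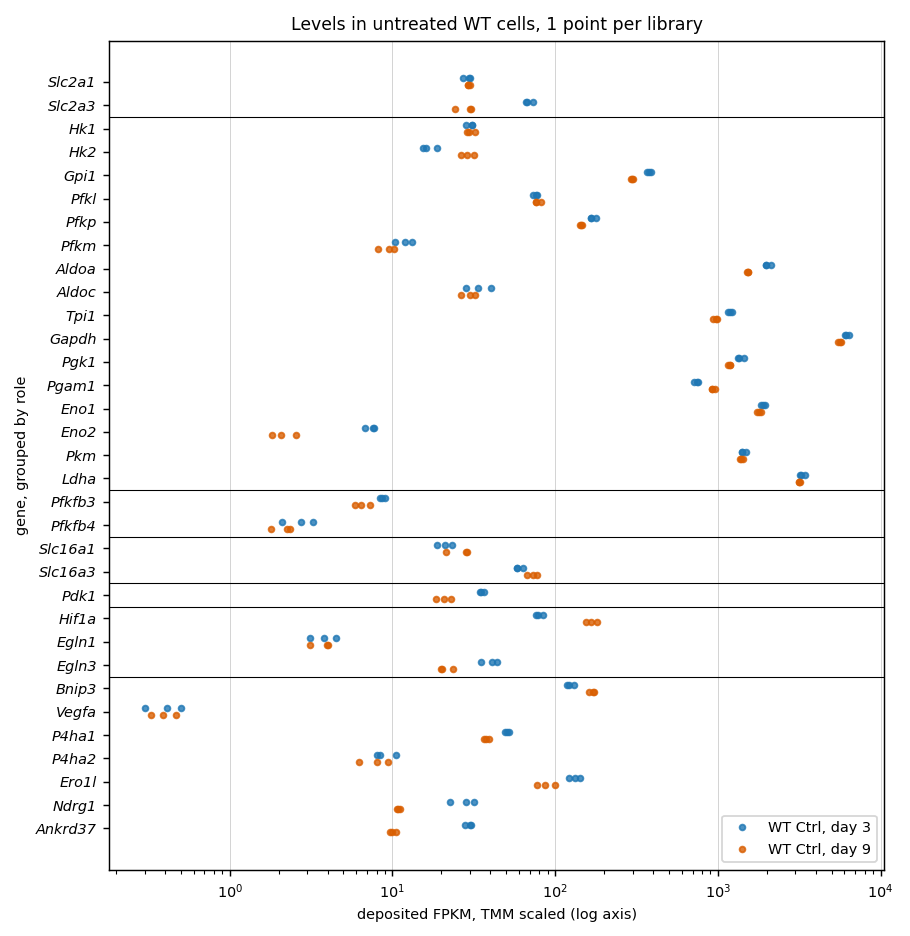
Deposited FPKM (log axis) of the 33 genes in the 3 WT Ctrl libraries of day 3 and of day 9, 1 point per library, genes grouped by role. Gapdh lies between 5444 and 6399 and Vegfa below 1, and Hif1a and Hk2 lie higher at day 9 while Slc2a3 and Eno2 lie lower.

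Dex at day 3 changed 6 of the 33 genes in WT cells. Slc2a3, Ero1l and P4ha1 fell, and Hif1a, Ndrg1 and Slc16a3 rose. A call is an adjusted p under 0.05 (edgeR quasi-likelihood test, Benjamini-Hochberg over all genes tested). The 3 rises are 9.09% of the set and compare with 4.93% of all 11967 genes called higher, and the 3 falls with 4.5% called lower. The median change was 0.05 on the log2 scale over the set and 0.01 over all genes. None of the 16 glycolytic enzymes was called, and their changes lay between -0.24 and 0.16.

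Of the transporters, Slc2a3 had 292, 270 and 266 CPM in WT Ctrl and 141, 188 and 167 CPM in WT Dex. Every Dex library lay below every Ctrl library, and the fold change was -0.74 ± 0.10 (log2 ± SE, adjusted p = 5.5e-05). Slc2a1, the other transporter, had 77.7, 71.5 and 77.3 CPM in Ctrl and 78.9, 81.3 and 74.3 in Dex, with overlapping groups and a change of 0.05 ± 0.06. Slc16a3, which encodes the lactate exporter MCT4, had 157, 146 and 147 CPM in Ctrl and 184, 188 and 180 in Dex. It was higher in each Dex library (0.29 ± 0.07, adjusted p = 0.0093). Its partner Slc16a1 (MCT1) was not called (0.14 ± 0.09).

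Hif1a stood at 367, 379 and 410 CPM in WT Ctrl and at 642, 661 and 650 CPM in WT Dex. The groups lay far apart, with a change of 0.76 ± 0.06 and an adjusted p of 1.0e-07. The hydroxylase genes Egln1 and Egln3 were not called (0.17 ± 0.13 and 0.08 ± 0.09). Among the other HIF1 targets, Ndrg1, a stress-responsive gene, had 92.5, 83.4 and 66.3 CPM in Ctrl and 158, 162 and 153 in Dex. All 3 Dex libraries lay above all Ctrl libraries (0.96 ± 0.11, adjusted p = 1.7e-05). Ero1l, an oxidase of the endoplasmic reticulum that makes disulfide bonds, had 540, 595 and 643 CPM in Ctrl and 409, 483 and 461 in Dex. It fell by 0.39 on the log2 scale (SE 0.08, adjusted p = 0.0029), with no overlap. P4ha1, a collagen prolyl hydroxylase subunit, went from 212, 209 and 204 CPM to 163, 172 and 164, lower in every Dex library (-0.32 ± 0.07, adjusted p = 0.0073). Thus the HIF1 subunit's own transcript and Ndrg1 rose while Ero1l and P4ha1 fell, and Bnip3 (0.25 ± 0.09, adjusted p = 0.076), P4ha2 (0.14 ± 0.16) and Ankrd37 (-0.10 ± 0.10) were not called.

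In cKO cells Dex called none of the 33 genes, and 0% of all genes was called higher and 0% lower by edgeR. Unadjusted p was under 0.05 for 3 of the 33, and DESeq2 and limma on log2 FPKM likewise called 0. Hif1a had 380, 378 and 407 CPM in cKO Ctrl and 358, 384 and 417 in cKO Dex, overlapping groups with a change of -0.01 ± 0.06. Slc2a3 had 322, 282 and 264 CPM in cKO Ctrl and 307, 330 and 267 in cKO Dex (0.06 ± 0.09). Ndrg1 had 86.6, 79.6 and 99.8 CPM in cKO Ctrl and 93.9, 96.5 and 74.7 in cKO Dex (-0.01 ± 0.11). All 3 genes thus overlapped between the cKO groups where they had separated in WT.

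The difference between the WT and cKO responses was itself tested, as the WT Dex change minus the cKO Dex change. It was positive for 2 of the 33 genes (6.06%; 1.57% of all genes) and negative for 2 (1.38% of all genes). Hif1a differed by 0.77 ± 0.08 (adjusted p = 1.7e-05) and Ndrg1 by 0.97 ± 0.16 (adjusted p = 0.0016). Slc2a3 differed by -0.79 ± 0.13 (adjusted p = 0.0022) and Ero1l by -0.46 ± 0.11 (adjusted p = 0.027). For P4ha1 (-0.32 ± 0.10, adjusted p = 0.10) and Slc16a3 (0.32 ± 0.09, adjusted p = 0.077), called in WT only, the difference did not pass. With all 24 libraries in 1 fit, Slc2a3 and Ero1l no longer passed and 2 genes were called, and without replicate 6 of cKO Dex 7 were.

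Without Dex, 3 of the 16 glycolytic enzymes were higher in cKO than in WT cells and 13 were not called. Gpi1 (0.20 ± 0.05, adjusted p = 0.031), Gapdh (0.17 ± 0.04, adjusted p = 0.020) and Aldoc (0.56 ± 0.12, adjusted p = 0.019) were higher, 3 of 33 genes against 1.38% of all genes, and 0 were lower against 0.986%. Aldoc, an aldolase isozyme best known from brain, had 69.5, 49.4 and 58.0 CPM in WT Ctrl and 92.4, 82.5 and 85.5 in cKO Ctrl, with no overlap. Gapdh, the most abundant, had 7954, 7737 and 7632 CPM in WT and 8701, 8498 and 9075 in cKO. Such changes are small, and the median over the set was 0.11 against 0.00 over all genes. None of the 3 calls stood in every alternative: the count was 0 without WT Ctrl replicate 2, 0 without cKO Ctrl replicate 6, 1 without WT Ctrl replicate 3 or cKO Ctrl replicate 4, 0 with all 24 libraries in 1 fit and 8 without the low-count filter.

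With Dex in both genotypes, 9 genes were higher in cKO (3.63% of all genes were) and 3 lower (3.28% of all genes). Slc2a3 (0.86 ± 0.09, adjusted p = 1.1e-05) led the higher genes and Ndrg1 (-0.83 ± 0.11, adjusted p = 9.5e-05) and Hif1a (-0.75 ± 0.06, adjusted p = 1.0e-07) the lower ones, which share their WT Dex libraries with the comparison above. The third lower gene was Hk2, with 108, 106 and 94.8 CPM in WT Dex and 74.6, 67.8 and 90.1 in cKO Dex (-0.41 ± 0.10, adjusted p = 0.019). Gpi1, Aldoa, Aldoc, Gapdh and Pgk1 were higher by 0.15 to 0.49. Of these, Gpi1, Aldoc and Gapdh were also called higher in cKO without Dex. For 0 of the 16 glycolytic enzymes did the Dex change itself differ between the genotypes at the threshold. Of the HIF1 targets, Ero1l, Ankrd37 and P4ha1 were higher by 0.29 to 0.37. The count of 12 dropped to 5 without WT Dex replicate 1 or without cKO Dex replicate 5 and to 4 with all 24 libraries in 1 fit. Hk2, Aldoc, Gapdh, Pgk1, Ero1l, Ankrd37 and P4ha1 each lost the call without either of these libraries.

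**Figure D2:**
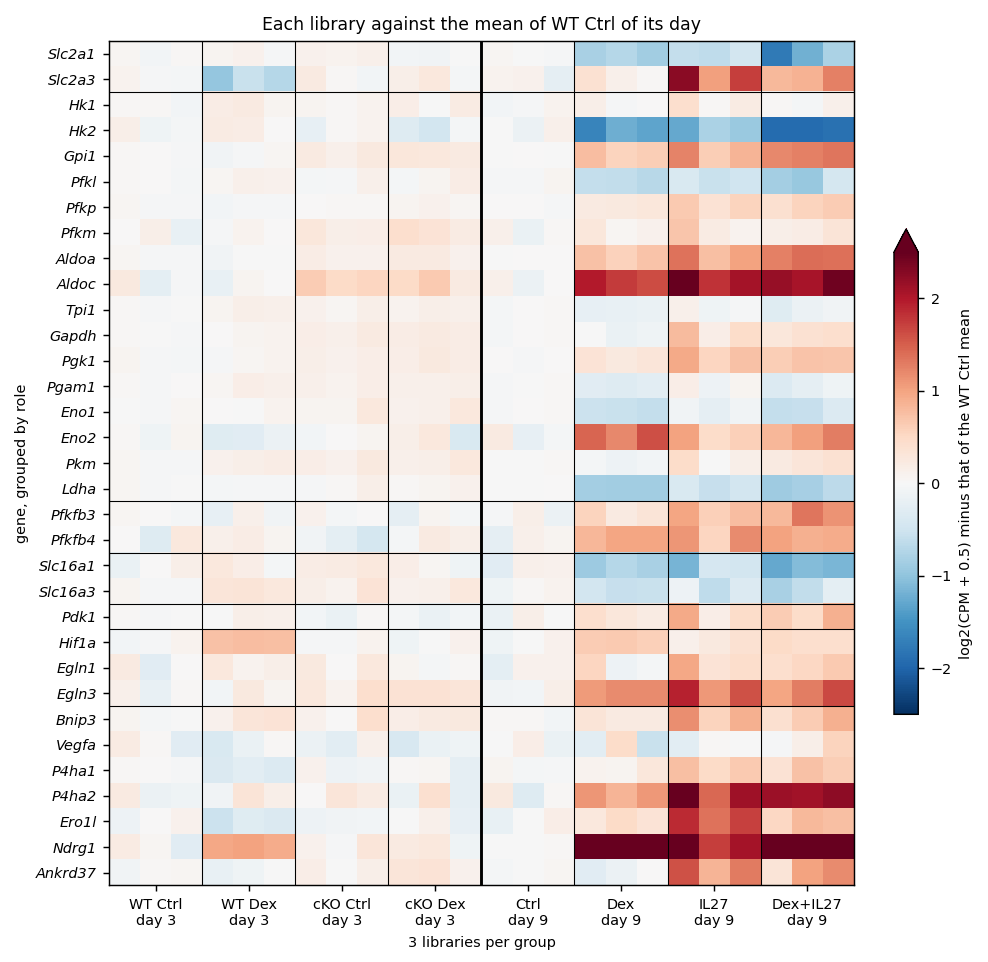
Colour gives log2(CPM + 0.5) of each gene in each of the 24 libraries minus that of the WT Ctrl mean of its day, with the colour scale ending at 2.5 in either direction. Day 3 shows colour mainly in WT Dex for Slc2a3, Hif1a, Ero1l and Ndrg1, and in both cKO groups for Aldoc. Day 9 shows blue bands for Slc2a1, Hk2, Pfkl, Ldha and Slc16a1 beside red bands for Aldoc, Egln3, P4ha2 and Ndrg1.

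After restimulation most of the genes were called in each treated group. At day 9, Dex raised 13 of the 33 genes and lowered 9, against 28.2% of all 12320 genes higher and 27.4% lower, so that the members' falls lay near the share of all genes. IL27 raised 23 and lowered 6, against 29.3% and 28.1% of all genes. Dex+IL27 raised 21 and lowered 9 relative to Ctrl, against 34.2% and 32.6%. The median change over the set was 0.16 with Dex, 0.56 with IL27 and 0.55 with both, where the medians over all genes were 0.03, 0.03 and 0.05. Without library 1, IL27 raised 19 and lowered 6, with a median of 0.40. The shares and medians of all genes, here and below, are those with library 1 included. All 3 treated groups were set against the same 3 Ctrl libraries, so their values stand side by side and are not independent.

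The 2 glucose transporters moved apart. Slc2a1, the main transporter of activated T cells, had 75.2, 72.3 and 71.9 CPM in Ctrl, 41.2, 44.2 and 39.8 in Dex, 48.1, 47.1 and 52.7 in IL27, and 21.0, 31.4 and 41.9 in Dex+IL27. Each treated library lay below each Ctrl library, with changes of -0.81 ± 0.16 (adjusted p = 6.3e-04), -0.57 ± 0.16 (adjusted p = 0.0071) and -1.22 ± 0.16 (adjusted p = 1.0e-05). Slc2a3, the high-affinity transporter, had 115, 117 and 92.4 CPM in Ctrl, 141, 118 and 110 in Dex, 521, 222 and 359 in IL27, and 189, 199 and 262 in Dex+IL27. Ctrl and Dex overlapped (0.18 ± 0.22, adjusted p = 0.52), while IL27 (1.76 ± 0.23, adjusted p = 1.0e-05) and Dex+IL27 (1.00 ± 0.22, adjusted p = 0.0011) lay above Ctrl. Library 1 is the high IL27 value, and without it the IL27 change was 1.43 (adjusted p = 8.3e-06). Per length, Slc2a3 RNA was 0.993, 1.05 and 0.835 times that of Slc2a1 in Ctrl, 2.22, 1.73 and 1.79 times in Dex, 7.03, 3.06 and 4.42 times in IL27, and 5.86, 4.12 and 4.06 times in Dex+IL27. In every treated library Slc2a3 thus exceeded Slc2a1, and with 3 libraries against 3 an exact two-sided permutation test cannot go below p = 0.10, so these ratios carry no test.

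The hexokinase and phosphofructokinase steps shifted between isozymes. Hk2, the inducible hexokinase of activated T cells, had 154, 140 and 169 CPM in Ctrl, 49.1, 65.8 and 61.7 in Dex, 63.4, 89.4 and 80.8 in IL27, and 40.2, 40.3 and 42.0 in Dex+IL27. No treated library reached a Ctrl library, and the changes were -1.39 ± 0.12 (adjusted p = 3.2e-07), -0.99 ± 0.12 (adjusted p = 7.1e-06) and -1.92 ± 0.13 (adjusted p = 5.8e-09). Hk1, the constitutive hexokinase, was not called with Dex (0.05 ± 0.09) or with both (0.04 ± 0.09). Its call with IL27 (0.23 ± 0.09, adjusted p = 0.043) was lost without library 1 (0.12, adjusted p = 0.21), and also without Ctrl library 1 or 2 or IL27 library 3. The FPKM of Hk2 was 0.998, 0.892 and 0.996 times that of Hk1 in the Ctrl libraries and between 0.239 and 0.547 times in the 9 treated libraries. Pfkl, the liver-type phosphofructokinase, fell from 276, 275 and 295 CPM in Ctrl to 186, 185 and 173 in Dex, 216, 190 and 199 in IL27 and 157, 146 and 207 in Dex+IL27 (-0.64 ± 0.10, -0.48 ± 0.10 and -0.73 ± 0.10). Pfkp, the platelet-type isozyme, was higher in all 9 treated libraries, at 560, 564 and 546 CPM in Ctrl, 652 to 674 in Dex, 718 to 881 in IL27 and 735 to 866 in Dex+IL27. Its changes were 0.25 ± 0.07 (adjusted p = 0.0079), 0.53 ± 0.07 (adjusted p = 1.7e-05) and 0.54 ± 0.07 (adjusted p = 9.8e-06). The Pfkp to Pfkl ratio in FPKM rose from between 1.73 and 1.91 in Ctrl to between 3.27 and 5.26 in treated libraries. Pfkm, the muscle type, had 22.9 to 28.3 CPM in Ctrl and was called with IL27 alone (0.36 ± 0.14, adjusted p = 0.039), which was lost without library 1 (0.15, adjusted p = 0.28) and without Ctrl library 2 or 3.

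The aldolases and glucose phosphate isomerase rose in all 3 treated groups. Aldoc had 53.2, 43.7 and 49.1 CPM in Ctrl, 195, 164 and 151 in Dex, 290, 173 and 208 in IL27, and 221, 205 and 266 in Dex+IL27. The treated groups lay wholly above Ctrl, and IL27 overlapped both other treated groups, with changes of 1.80 ± 0.16 (adjusted p = 3.7e-07), 2.20 ± 0.17 (adjusted p = 7.1e-08) and 2.24 ± 0.17 (adjusted p = 1.7e-08). It remained the minor aldolase: its FPKM was 0.0194 ± 0.0020 (SD, n = 3) times that of Aldoa in Ctrl and 0.0425 ± 0.0050 times in Dex. Aldoa, the main aldolase, had 2211, 2238 and 2242 CPM in Ctrl, 3714, 3321 and 3646 in Dex, 5727, 3779 and 4478 in IL27, and 5311, 5864 and 5768 in Dex+IL27. All treated libraries were higher than Ctrl (0.67 ± 0.10, 1.06 ± 0.10 and 1.34 ± 0.11), with adjusted p of 6.2e-05, 7.5e-07 and 3.3e-08. Gpi1, which converts glucose phosphate to fructose phosphate, went the same way, from 813, 830 and 815 CPM in Ctrl to 1399, 1198 and 1254 in Dex, 1929, 1251 and 1482 in IL27, and 1889, 1957 and 2066 in Dex+IL27. Its changes were 0.65 ± 0.11, 0.92 ± 0.11 and 1.27 ± 0.11, with adjusted p of 1.7e-04, 5.6e-06 and 1.2e-07. Without library 1 the IL27 changes of Aldoc, Aldoa and Gpi1 were 1.97, 0.89 and 0.74, and all 3 still passed.

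From glyceraldehyde phosphate to lactate the enzymes did not move together. Pgk1, the earlier of the 2 enzymes that yield ATP, rose from 2083, 2025 and 2076 CPM in Ctrl to 2619, 2433 and 2527 in Dex, 4000, 3008 and 3439 in IL27, and 3138, 3388 and 3347 in Dex+IL27 (0.29 ± 0.08, 0.76 ± 0.08 and 0.68 ± 0.08). Gapdh rose with IL27 (0.50 ± 0.10, adjusted p = 8.0e-04, and 0.33 without library 1, adjusted p = 0.0012) and with both (0.36 ± 0.10, adjusted p = 0.0061) but was not called with Dex (-0.09 ± 0.10). Eno1, the main enolase, had 3002, 3082 and 3134 CPM in Ctrl, 2123, 2082 and 2032 in Dex, 2908, 2646 and 2884 in IL27, and 2046, 2056 and 2424 in Dex+IL27. It fell with Dex (-0.56 ± 0.06, adjusted p = 2.2e-06) and with both (-0.50 ± 0.06, adjusted p = 4.1e-06) and was not called with IL27 (-0.13 ± 0.06, adjusted p = 0.089). Each IL27 library lay below each Ctrl library, which held for 31.6% of all genes tested. Eno2, the enolase best known from neurons, was low at 6.48, 4.69 and 5.27 CPM in Ctrl and rose to 16.0, 13.3 and 17.9 in Dex, 11.5, 7.76 and 8.57 in IL27, and 10.2, 11.6 and 13.995 in Dex+IL27 (1.52 ± 0.19, 0.76 ± 0.19 and 1.12 ± 0.19). Tpi1 and Pgam1 fell with Dex (-0.18 ± 0.07 and -0.29 ± 0.07) and with both (-0.18 ± 0.07 and -0.23 ± 0.07) and were not called with IL27. Without replicate 1 of Dex+IL27 neither passed for both additions (adjusted p of 0.15 and 0.058). Tpi1 also lost this call without Ctrl library 2 or 3, and its Dex call without either of these or any Dex library (adjusted p from 0.051 to 0.094). Pkm, pyruvate kinase, was not called with Dex (-0.08 ± 0.08) and rose with both (0.30 ± 0.08, adjusted p = 0.0056). Its call with IL27 (0.21 ± 0.08, adjusted p = 0.044) was lost without library 1 (0.07, adjusted p = 0.29), any Ctrl library or IL27 library 3.

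Ldha had 4979, 4979 and 5025 CPM in Ctrl, 2778, 2719 and 2740 in Dex, 3855, 3338 and 3632 in IL27, and 2715, 2818 and 3156 in Dex+IL27. These values are tight and separate in every treated group, with changes of -0.86 ± 0.06 (adjusted p = 2.7e-08), -0.47 ± 0.06 (adjusted p = 7.2e-06) and -0.79 ± 0.06 (adjusted p = 1.8e-08). In FPKM order Ldha had rank 2 among the 33 genes in Ctrl and rank 4 in Dex+IL27, below Aldoa and Pgk1. There Ldha (1678, 1757 and 1946 FPKM) and Pgk1 (1748, 1905 and 1860 FPKM) overlapped, so their order is within the spread. Gapdh, Eno1 and Ldha have near-identical processed pseudogenes, so their levels are uncertain where reads are shared, since the authors' estimates assign these.

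Both lactate transporters fell. Slc16a1 had 91.7, 123 and 121 CPM in Ctrl, 59.2, 68.1 and 63.2 in Dex, 49.4, 83.3 and 81.2 in IL27, and 45.9, 52.2 and 50.2 in Dex+IL27. The treated groups lay below Ctrl in every library (-0.82 ± 0.16, -0.65 ± 0.16 and -1.18 ± 0.16), with adjusted p of 5.2e-04, 0.0027 and 1.2e-05. Slc16a3 had 161, 177 and 184 CPM in Ctrl, 127, 116 and 119 in Dex, 159, 111 and 137 in IL27, and 98.7, 113 and 147 in Dex+IL27 (-0.53 ± 0.13, -0.36 ± 0.13 and -0.54 ± 0.13). Every treated library was again below Ctrl, by little in IL27 library 1. The IL27 call was lost without Ctrl library 2 or 3 or IL27 library 2 or 3 (without IL27 library 2, -0.24 and adjusted p = 0.13).

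The PFKFB genes, whose enzymes set the level of an activator of phosphofructokinase, rose in each treated group. Pfkfb3 had 29.3, 33.1 and 26.8 CPM in Ctrl, 43.9, 35.0 and 37.5 in Dex, 59.4, 45.4 and 51.2 in IL27, and 52.9, 75.5 and 65.0 in Dex+IL27 (0.38 ± 0.14, 0.81 ± 0.14 and 1.11 ± 0.14). Its Dex call was lost without Ctrl library 1 or 3 or Dex library 1 (adjusted p from 0.085 to 0.13). Pfkfb4 had 5.87, 7.62 and 7.25 CPM in Ctrl, 12.8, 14.3 and 14.3 in Dex, 15.3, 10.3 and 16.3 in IL27, and 14.4, 13.2 and 13.6 in Dex+IL27, so that the 3 treated groups overlapped each other above Ctrl (0.99 ± 0.17, 1.02 ± 0.17 and 0.99 ± 0.17). Pdk1 encodes a kinase that limits the use of pyruvate in the mitochondrion by blocking pyruvate dehydrogenase. It had 92.2, 115 and 103 CPM in Ctrl, 139, 125 and 119 in Dex, 199, 116 and 142 in IL27, and 160, 142 and 191 in Dex+IL27. It passed with IL27 (0.56 ± 0.16, adjusted p = 0.0072, and 0.32 without library 1, adjusted p = 0.041) and with both (0.67 ± 0.16, adjusted p = 0.0016), and not with Dex (0.31 ± 0.16, adjusted p = 0.12). Its Dex libraries all lay above Ctrl, as did those of 32.8% of all genes tested.

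**Figure D3:**
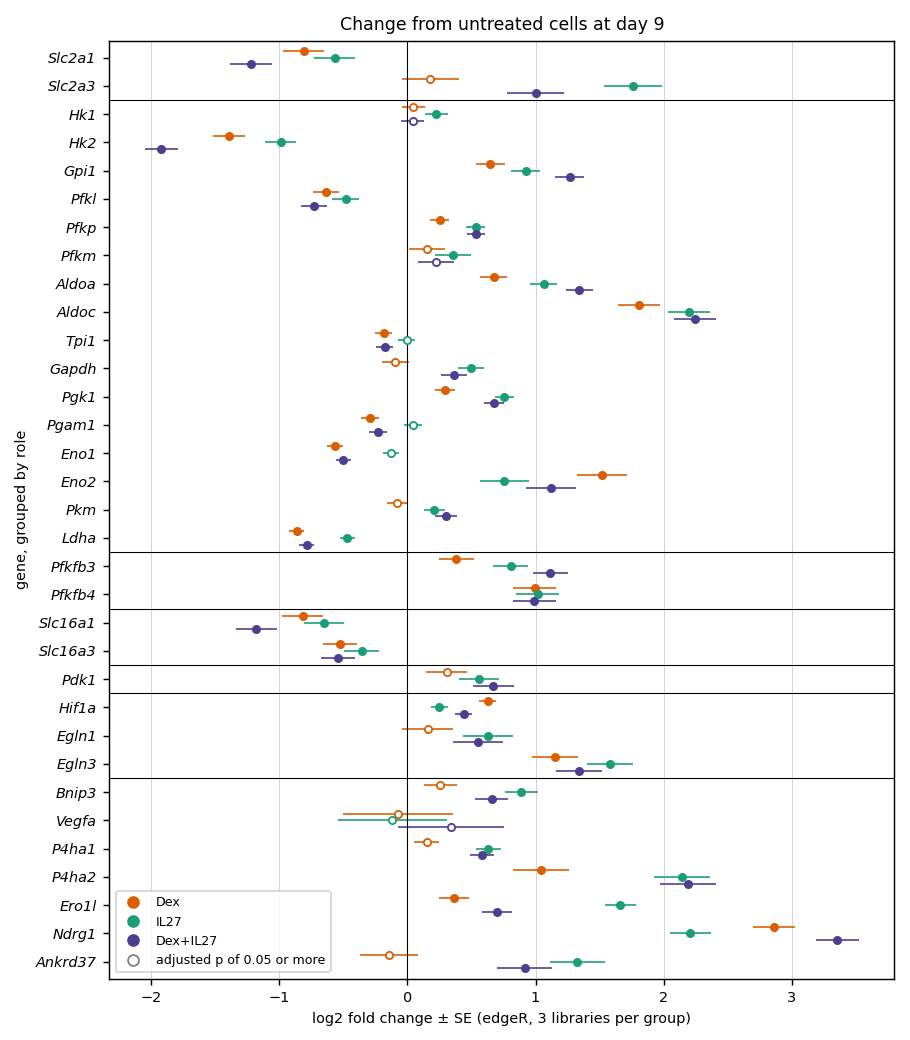
Log2 fold change from Ctrl at day 9 with its SE (edgeR, 3 libraries per group) for each gene with Dex, IL27 or both, filled where adjusted p was under 0.05. Slc2a1, Hk2, Pfkl, Ldha, Slc16a1 and Slc16a3 lie left of 0 in all 3, and for Slc2a3, Ero1l and Ankrd37 the IL27 point lies to the right of the Dex and Dex+IL27 points.

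Hif1a rose at day 9 too, most with Dex. It had 716, 767 and 834 CPM in Ctrl, 1194, 1218 and 1163 in Dex, 838, 913 and 1002 in IL27, and 1082, 1029 and 1036 in Dex+IL27. All treated libraries exceeded Ctrl, IL27 by the least (0.63 ± 0.07, 0.25 ± 0.07 and 0.44 ± 0.07, with adjusted p of 1.9e-06, 0.0053 and 3.3e-05). Egln3, a hydroxylase gene that HIF1 itself raises, had 51.7, 52.5 and 61.0 CPM in Ctrl, 116, 126 and 125 in Dex, 210, 118 and 168 in IL27, and 110, 134 and 174 in Dex+IL27. Its treated groups lay above Ctrl and overlapped each other (1.15 ± 0.18, 1.58 ± 0.18 and 1.34 ± 0.18). Egln1, the main oxygen sensor, was called with IL27 (0.63 ± 0.20, adjusted p = 0.013) and with both (0.55 ± 0.20, adjusted p = 0.022), and the IL27 call was lost without library 1 (0.40, adjusted p = 0.080). Both Egln1 calls were lost without Ctrl library 1 (adjusted p of 0.064 and 0.097), and that with both also without Dex+IL27 library 3 (0.072).

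The other HIF1 targets formed 2 patterns. Ndrg1 and P4ha2 rose with each addition. Ndrg1 had 30.0, 30.3 and 30.9 CPM in Ctrl, 218, 206 and 238 in Dex, 189, 102 and 130 in IL27, and 302, 301 and 330 in Dex+IL27. The 4 groups did not overlap, in the order Ctrl, IL27, Dex and Dex+IL27, with changes of 2.86 ± 0.16 (adjusted p = 6.2e-09), 2.21 ± 0.16 (adjusted p = 5.7e-08) and 3.36 ± 0.17 (adjusted p = 5.6e-10). P4ha2, the second collagen prolyl hydroxylase subunit, had 20.8, 13.7 and 17.6 CPM in Ctrl, 37.9, 31.7 and 37.6 in Dex, 105, 47.5 and 77.3 in IL27, and 78.2, 76.3 and 83.3 in Dex+IL27 (1.04 ± 0.22, 2.14 ± 0.22 and 2.19 ± 0.22). Without library 1 its IL27 change was 1.85 (adjusted p = 7.3e-07).

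Ero1l, Ankrd37, Bnip3 and P4ha1 rose with IL27 and little or not at all with Dex. Ero1l had 331, 373 and 423 CPM in Ctrl, 450, 523 and 476 in Dex, 1375, 963 and 1231 in IL27, and 542, 657 and 632 in Dex+IL27. The IL27 libraries stood above all others, with changes of 0.36 ± 0.12 (adjusted p = 0.017), 1.66 ± 0.12 (adjusted p = 5.4e-08) and 0.70 ± 0.12 (adjusted p = 9.2e-05), and 1.55 for IL27 without library 1. The Dex call was lost without Ctrl library 1 or 2 or Dex library 2 (adjusted p of 0.10, 0.054 and 0.084). Ankrd37, an ankyrin repeat gene known as a direct HIF1 target, had 8.53, 8.75 and 9.13 CPM in Ctrl, 7.16, 7.89 and 8.88 in Dex, 27.6, 16.3 and 22.5 in IL27, and 11.1, 18.3 and 20.5 in Dex+IL27. Dex libraries overlapped Ctrl (-0.14 ± 0.23) and both IL27 groups lay above (1.33 ± 0.22, adjusted p = 9.3e-05, and 0.91 ± 0.22, adjusted p = 0.0017). Bnip3, a receptor for mitophagy, had 294, 291 and 273 CPM in Ctrl, 359, 332 and 334 in Dex, 640, 419 and 529 in IL27, and 380, 446 and 527 in Dex+IL27. It was not called with Dex (0.26 ± 0.13, adjusted p = 0.10) and passed with IL27 (0.89 ± 0.13, adjusted p = 3.1e-05) and with both (0.66 ± 0.13, adjusted p = 3.3e-04). P4ha1 showed the same calls (0.15 ± 0.09, 0.63 ± 0.09 and 0.58 ± 0.09).

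Adding IL27 to Dex raised 15 of the 33 genes and lowered 2, against 14.9% of all genes higher and 17.1% lower. The median was 0.34 over the set and 0.00 over all genes. P4ha2 (1.15 ± 0.21, adjusted p = 9.4e-04), Ankrd37 (1.06 ± 0.22, adjusted p = 0.0023), Slc2a3 (0.82 ± 0.22, adjusted p = 0.012), Pfkfb3 (0.73 ± 0.14, adjusted p = 0.0011), Aldoa (0.67 ± 0.10, adjusted p = 2.9e-04) and Gpi1 (0.62 ± 0.11, adjusted p = 8.2e-04) rose most. Of the 7 other HIF1 targets, 6 rose. Slc2a3 missed the threshold without Dex library 3 or Dex+IL27 library 3 (adjusted p of 0.054 and 0.059), and Aldoc, Bnip3, Ero1l and Ndrg1, which rose by 0.34 to 0.50, each lost the call without any 1 of 3 or 4 libraries. Hk2 fell further (-0.53 ± 0.13, adjusted p = 0.0055), and the drop of Hif1a (-0.18 ± 0.07, adjusted p = 0.048) was lost when any 1 library of either group was left out. Scaled by library totals, 13 of the set rose and 3 fell, and the share of all genes' calls that were higher moved from 46.5% to 34.6%.

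Adding Dex to IL27 raised 3 genes and lowered 8, against 11.7% of all genes higher and 14.3% lower, with a median of -0.13 over the set and 0.00 over all genes. Ero1l (-0.96 ± 0.12, adjusted p = 5.9e-05), Hk2 (-0.93 ± 0.13, adjusted p = 1.3e-04), Slc2a1 (-0.65 ± 0.16, adjusted p = 0.0094), Slc16a1 (-0.53 ± 0.16, adjusted p = 0.025), Eno1 (-0.37 ± 0.06, adjusted p = 5.9e-04), Ldha (-0.32 ± 0.06, adjusted p = 0.0012) and Pgam1 (-0.27 ± 0.07, adjusted p = 0.0096) fell. The drop of Slc2a3 (-0.76 ± 0.22, adjusted p = 0.020) was lost without IL27 library 1 (-0.43, adjusted p = 0.080) and without Dex+IL27 library 1 or 2. Slc16a1 lost its call without IL27 library 2 or 3 or Dex+IL27 library 1 or 3, and Slc2a1 moved to -0.43 without Dex+IL27 library 1. Ndrg1 rose by 1.15 ± 0.15 (adjusted p = 9.5e-05) and Gpi1 by 0.34 ± 0.11 (adjusted p = 0.033), and the call of Hif1a (0.19 ± 0.07, adjusted p = 0.046) was lost without IL27 library 1 (adjusted p = 0.13), IL27 library 2 or any Dex+IL27 library. The rise of Gpi1 was 0.53 (adjusted p = 8.1e-05) without IL27 library 1 and missed the threshold without any other library of the 2 groups (without IL27 library 2, 0.21 and adjusted p = 0.14). Leaving out IL27 library 1 gave 7 rises and 7 falls and a median of 0.03. Leaving out replicate 1 of Dex+IL27 gave 2 rises and 5 falls, and Slc16a1, Pgam1 and Slc2a3 no longer passed. The shares and median of all genes above are those with every library included. Scaled by library totals, 1 gene rose and 11 fell, and the share of all genes' calls that were higher moved from 45% to 33.5%.

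Whether the 2 additions combined as their separate log2 changes would add was tested as an interaction. The combined change lay below the sum for 10 genes and above it for 1, against 14.7% of all genes with a negative and 13.7% with a positive interaction. Negative values mostly belonged to genes that each addition raised: Aldoc (-1.76 ± 0.22, adjusted p = 8.1e-05), Ndrg1 (-1.71 ± 0.22, adjusted p = 7.7e-05), Egln3 (-1.39 ± 0.25, adjusted p = 9.9e-04), Ero1l (-1.32 ± 0.17, adjusted p = 7.5e-05), Eno2 (-1.16 ± 0.27, adjusted p = 0.0050), Pfkfb4 (-1.02 ± 0.23, adjusted p = 0.0048), P4ha2 (-0.99 ± 0.30, adjusted p = 0.023), Hif1a (-0.43 ± 0.09, adjusted p = 0.0037) and Pgk1 (-0.37 ± 0.11, adjusted p = 0.017). Ldha, which each addition lowered, had the positive value (0.55 ± 0.08, adjusted p = 2.7e-04). Hk2 did not pass (0.46 ± 0.18, adjusted p = 0.062), with a combined change of -1.92 beside -1.39 and -0.99. The value of Slc2a3 (-0.94 ± 0.31, adjusted p = 0.036) was lost without IL27 library 1 (-0.61, adjusted p = 0.075) and in 8 other cases of leaving out 1 of the 12 libraries. P4ha2 missed the threshold without Ctrl library 2 or Dex library 1 or 3 (adjusted p of 0.066, 0.050 and 0.050), and Pgk1 without Ctrl library 2 (0.053).

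**Figure D4:**
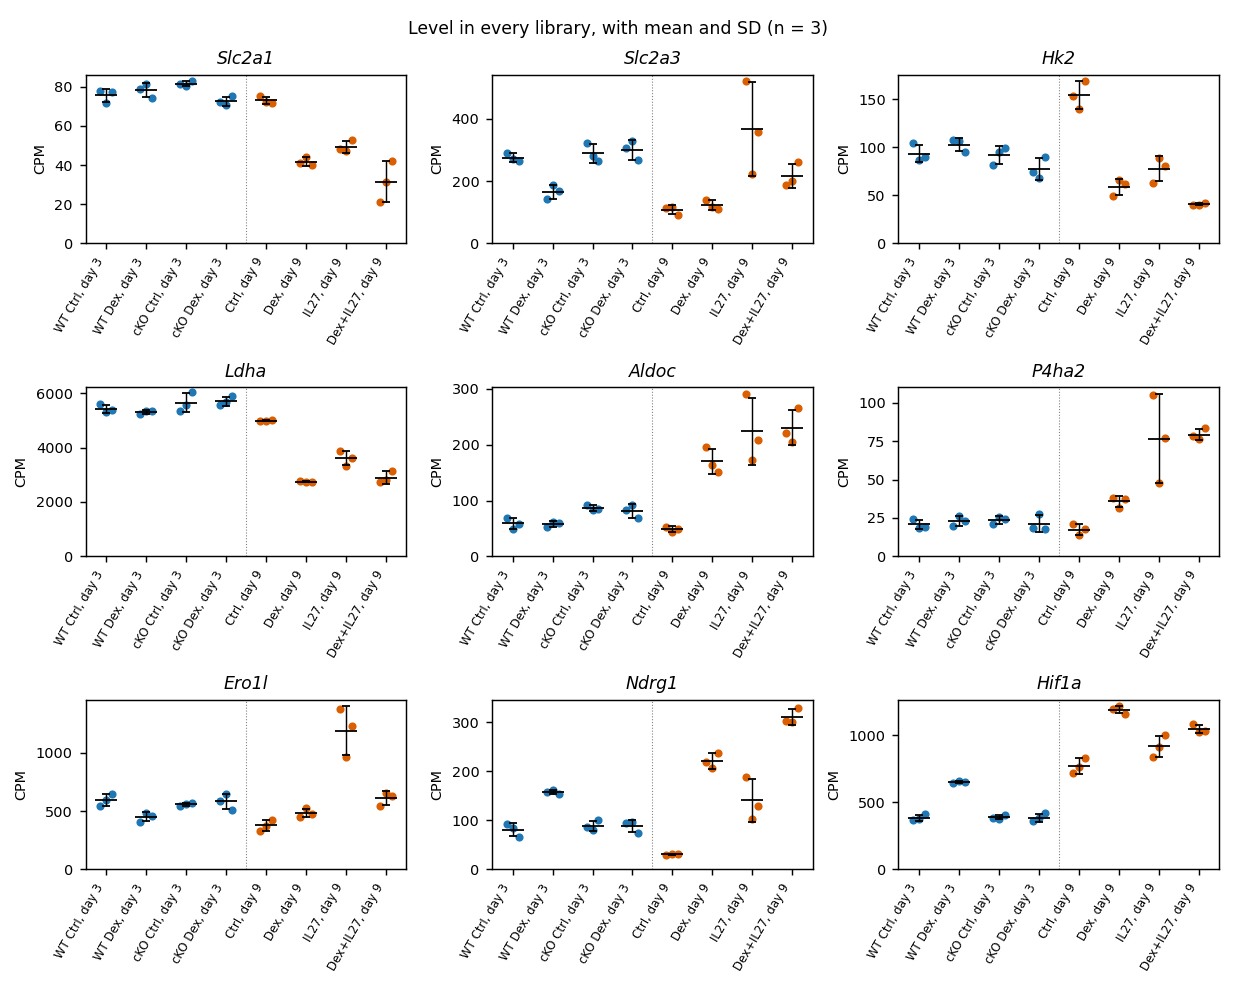
CPM of 9 of the genes in each library of the 8 groups (points; day 3 blue, day 9 orange) with the mean and SD (n = 3) in black, each axis starting at 0. Slc2a1, Hk2 and Ldha are lower in all treated day 9 groups, Aldoc, P4ha2 and Ndrg1 are higher, and Ero1l is highest with IL27 alone.

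The Dex change differed between the days for 23 of the 33 genes. It was more positive at day 9 for 14, against 20.4% of all 12666 genes, and more negative for 9, against 19.2%. The days differ in stimulation history, which cannot be told apart from time. Among the transporters, Slc2a3 changed by -0.74 at day 3 and 0.18 at day 9, a difference of 0.95 ± 0.27 (adjusted p = 0.0059), while Slc2a1 changed by 0.05 and -0.81 (-0.83 ± 0.18, adjusted p = 6.8e-04). Slc16a3 rose at day 3 and fell at day 9, which differed by -0.79 ± 0.16 (adjusted p = 3.2e-04), and Ero1l fell at day 3 and rose at day 9 (0.79 ± 0.15, adjusted p = 2.3e-04). Enzymes that changed with Dex at day 9 were not called at day 3, and the change differed between the days: the differences were -1.50 ± 0.17 for Hk2 (adjusted p = 2.6e-07), -0.79 ± 0.08 for Ldha (adjusted p = 2.2e-08), -0.70 ± 0.13 for Pfkl (adjusted p = 8.7e-05) and -0.55 ± 0.09 for Eno1 (adjusted p = 1.7e-05). They were 1.87 ± 0.22 for Aldoc (adjusted p = 3.0e-07), 1.80 ± 0.24 for Eno2 (adjusted p = 2.4e-06) and 0.75 ± 0.12 for Aldoa (adjusted p = 2.7e-05). Ndrg1 rose on both days and by more at day 9 (1.93 ± 0.21, adjusted p = 1.1e-07). For Hif1a the 2 changes, 0.76 and 0.63, differed by -0.10 ± 0.09 (adjusted p = 0.43) in the fit of all libraries.

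**Figure D5:**
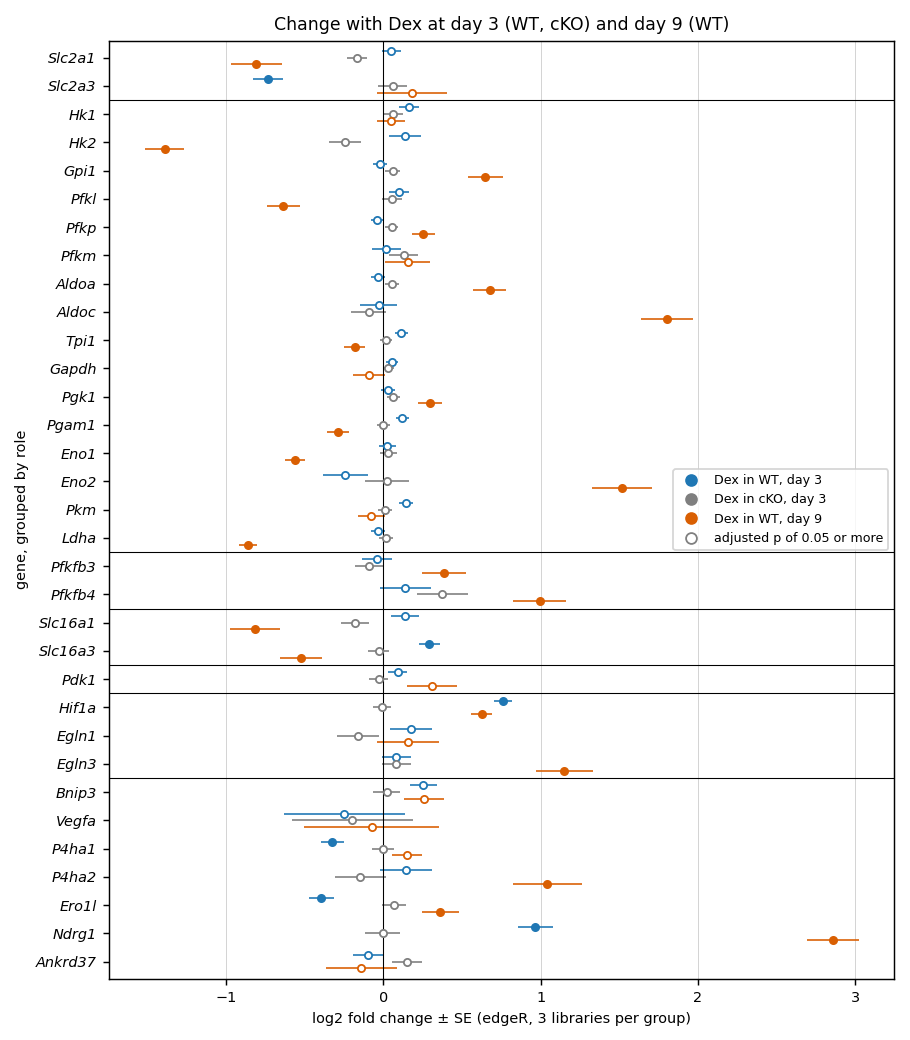
Log2 fold change with Dex and its SE (edgeR, 3 libraries per group) for each gene in WT cells at day 3, cKO cells at day 3 and WT cells at day 9, filled where adjusted p was under 0.05. Grey cKO points lie between -0.25 and 0.37 and are all open. Hif1a is at 0.76 and 0.63 in WT on the 2 days, and Hk2, Ldha and Aldoc are filled only at day 9 among these contrasts.

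Neighbouring pathways were described with lists of their other genes, counted at day 9 against Ctrl. Of 8 pentose phosphate genes, 5 fell and 1 rose with Dex, 4 fell and 1 rose with IL27, and 5 fell and 1 rose with both, with medians of -0.46, -0.27 and -0.41. The shares of all genes called lower were 27.4%, 28.1% and 32.6%, and those called higher 28.2%, 29.3% and 34.2%. G6pdx, the entry enzyme, averaged 94.98 CPM in Ctrl and 47.5, 44.9 and 40.7 CPM with Dex, IL27 and both. It fell by 1.00 (SE 0.09) with Dex, by 1.08 (SE 0.09) with IL27 and by 1.22 (SE 0.09) with both. Pgd, which acts later in the same branch, fell by 1.00 (SE 0.08), 1.07 (SE 0.08) and 1.16 (SE 0.08). Of 12 glycogen genes, 7, 9 and 8 rose and 1 fell each time, with medians of 0.33, 0.59 and 0.51. Without IL27 library 1, IL27 raised 7 of the glycogen genes and lowered 0, and the counts of pentose phosphate genes were as before. Pygl, a glycogen phosphorylase, averaged 11.5 CPM in Ctrl and 49.6, 61.9 and 60.2 CPM in the treated groups (2.11 ± 0.25, 2.43 ± 0.25 and 2.39 ± 0.25), and Gyg, glycogenin, rose as well (0.85 ± 0.09, 1.23 ± 0.09 and 1.51 ± 0.09).

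Of 12 genes of pyruvate entry into mitochondria and of its use there, 7 fell in each comparison and 2, 2 and 1 rose. The medians were -0.30, -0.26 and -0.42. Of all genes, 27.4%, 28.1% and 32.6% were called lower and 28.2%, 29.3% and 34.2% higher. Without IL27 library 1, IL27 lowered 6 and raised 2 of the 12. Dlat and Dld, subunits of the pyruvate dehydrogenase complex, fell (Dlat by -0.81 ± 0.08, -0.75 ± 0.08 and -1.19 ± 0.09, Dld by -0.53 ± 0.07, -0.53 ± 0.07 and -0.85 ± 0.07). Pdk2, another inhibitory kinase of that complex, averaged 1.94 CPM in Ctrl and 8.99, 14.8 and 15.6 CPM in the treated groups (2.20 ± 0.22, 2.92 ± 0.22 and 3.00 ± 0.22). Among 18 other isozymes and genes of glucose handling, 4, 4 and 5 rose and 5, 7 and 9 fell, where the rises lay below and the Dex falls near the shares of all genes. Txnip, an arrestin that curbs glucose transport, averaged 46.3 CPM in Ctrl and 301, 260 and 473 CPM in the treated groups (2.70 ± 0.15, 2.49 ± 0.15 and 3.35 ± 0.15), and its relative Arrdc4 rose too (3.09 ± 0.26, 3.21 ± 0.26 and 3.79 ± 0.26). At day 3 Txnip was the gene of that list with a rise in WT Dex cells (0.55 ± 0.08, adjusted p = 3.3e-04).

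Of 24 further HIF1 targets, 9 rose and 7 fell with Dex, 13 and 3 with IL27, and 10 and 7 with both, with medians of 0.05, 0.55 and 0.33. The shares of all genes were 28.2% higher and 27.4% lower with Dex, 29.3% and 28.1% with IL27, and 34.2% and 32.6% with both, so the falls with Dex and with both lay near them. Without IL27 library 1, IL27 raised 12 and lowered 4. Bnip3l, the mitophagy relative of Bnip3, and Ddit4, an mTORC1 inhibitor, rose (Bnip3l by 1.24 ± 0.14, 1.65 ± 0.14 and 1.99 ± 0.14, Ddit4 by 1.62 ± 0.14, 1.22 ± 0.14 and 2.06 ± 0.14). Tfrc, the transferrin receptor, averaged 705 CPM in Ctrl and fell (-2.21 ± 0.14, -2.77 ± 0.15 and -3.56 ± 0.15). Of 14 regulators of the HIF pathway, 7, 6 and 8 rose and 6, 4 and 5 fell (4 and 4 with IL27 without library 1). The falls with IL27 and with both lay near the shares of all genes. Among the genes that fell was Hsp90aa1, a chaperone that steadies HIF1A as well as the glucocorticoid receptor (-1.51 ± 0.12, -1.42 ± 0.11 and -2.16 ± 0.12). Hif3a, an inhibitory HIF paralog, rose with Dex on both days (1.14 ± 0.21 at day 3, adjusted p = 0.0014, and 1.93 ± 0.20 at day 9, adjusted p = 1.3e-06). Of 17 regulators of glycolysis, 2, 3 and 6 rose and 5, 6 and 6 fell. The falls with Dex, and the rises and falls with both additions, were near the shares of all genes. Myc, which drives glycolytic genes in activated T cells, averaged 629 CPM in Ctrl and 284 CPM in Dex+IL27 (-1.15 ± 0.11, adjusted p = 1.8e-07).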

How the data were processed

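RNA from 24 libraries (3 per group) was measured by SMART-Seq2 in a modified form (11 cycles of amplification, paired reads of 38 nt), per the labels' protocols. Its reads mark neither strand nor molecule, so counts can include antisense RNA and amplification copies. The authors deposited RSEM estimated counts, not normalized, and FPKM values. That the FPKM are TMM-scaled is stated only in the name of the deposited table. The submitters' processing notes name TopHat, RSEM, DESeq and the mm9 build, with no role or version. No mm9 annotation was used here. No deposited column lacked a sample.

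Counts were rounded and tested with edgeR 4.0.16 in R 4.3.3 (quasi-likelihood F-test, two-sided, TMM, filterByExpr with minimum count 10 and minimum total 15, prior count 0.125). Each day's 12 libraries made 1 fit with a mean for every group, and the contrast of days used all 24. Fold changes are log2 with SE, and Benjamini-Hochberg adjusted p under 0.05 over all genes that passed the filter is a call. CPM use the TMM factors of the day. Depth limits precision mostly for Vegfa, at about 1 CPM. The fits were tested on simulated data.

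The 33 genes, the lists of related genes and the tests were chosen with earlier results of these data known. Values per library were given for the members with the lowest p in each role in each comparison, and named list genes are among the 4 of lowest p. Alternatives were DESeq2 1.42.0 size factors, library totals, no filter, the DESeq2 Wald test, limma 3.58.1 on log2 of FPKM plus 1 or 0.1 (with a minimum mean of 1 FPKM, or no filter), a single fit of all 24, a block for replicate number, and leaving out libraries one at a time, where a group of 2 shares the spread of the others. Figures were drawn with matplotlib 3.10.9.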

Additional observations from a re-analysis of the deposited data

Results flagged for a closer look

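These genes had a difference between 2 effects of the same treatment that passed edgeR's test of the difference itself (adjusted p under 0.05, log2 ± SE, 3 libraries per group).

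The Dex effect differed between WT and cKO cells at day 3 (WT minus cKO) for Slc2a3 (-0.79 ± 0.13), Hif1a (0.77 ± 0.08), Ero1l (-0.46 ± 0.11) and Ndrg1 (0.97 ± 0.16). The Ero1l value missed the threshold in 10 of 21 alternatives, 8 of which each left out a single library.

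The Dex effect at day 9 differed with and without IL27 (with minus without) for Slc2a3 (-0.94 ± 0.31), Aldoc (-1.76 ± 0.22), Pgk1 (-0.37 ± 0.11), Eno2 (-1.16 ± 0.27), Ldha (0.55 ± 0.08), Pfkfb4 (-1.02 ± 0.23), Hif1a (-0.43 ± 0.09), Egln3 (-1.39 ± 0.25), P4ha2 (-0.99 ± 0.30), Ero1l (-1.32 ± 0.17) and Ndrg1 (-1.71 ± 0.22). IL27 library 1, which stood apart, enters all of these. Without it 12 of the 33 genes had such a difference, 3 positive and 9 negative, which is not set beside the count of all genes in that fit. Slc2a3 was not among them. It also missed the threshold when certain other single libraries were left out, as did P4ha2 and Pgk1.

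The Dex effect differed between the days (day 9 minus day 3, WT cells) for Slc2a1 (-0.83 ± 0.18), Slc2a3 (0.95 ± 0.27), Hk2 (-1.50 ± 0.17), Gpi1 (0.70 ± 0.13), Pfkl (-0.70 ± 0.13), Pfkp (0.33 ± 0.08), Aldoa (0.75 ± 0.12), Aldoc (1.87 ± 0.22), Tpi1 (-0.26 ± 0.08), Pgk1 (0.30 ± 0.09), Pgam1 (-0.37 ± 0.08), Eno1 (-0.55 ± 0.09), Eno2 (1.80 ± 0.24), Ldha (-0.79 ± 0.08), Pfkfb3 (0.46 ± 0.18), Pfkfb4 (0.89 ± 0.23), Slc16a1 (-0.92 ± 0.20), Slc16a3 (-0.79 ± 0.16), Egln3 (1.10 ± 0.22), P4ha1 (0.51 ± 0.13), P4ha2 (0.93 ± 0.30), Ero1l (0.79 ± 0.15) and Ndrg1 (1.93 ± 0.21). Pfkfb3 missed the threshold in 8 of the 12 cases of leaving out 1 library. The 2 days have different stimulation histories, which cannot be told apart from time.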

How the results depend on the processing

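No alternative reversed the direction of a called gene. Over single genes and alternatives, 6070 verdicts were unchanged, 223 lost the call and 117 gained one. Counts of called genes moved by over 1.5 times in these cases. With the replicate number as a block, calls over all genes for WT Dex at day 3 moved from 1129 to 1347. Of the 33 members, 10 passed (7 higher, 3 lower) in place of 6 with replicate number as the block. Numbers were shared between Ctrl and treated groups, but same-numbered libraries did not deviate together throughout. Correlations of deviations ran from -0.302 to 0.388 over all pairs of groups and from -0.001 to 0.02 in WT at day 3. In cKO they were 0.073 to 0.298, where each library correlated best with its own number, a hint from the data only. The labels do not say whether same-numbered libraries had a common source, and these correlations cannot settle it. The block did not move the other counts of members by over 1.5 times. For the genotype by Dex interaction it gave 6 members in place of 4, and 526 of all genes in place of 353. No paired analysis was possible for cKO against WT because their numbers differ. Without the low-count filter, the genotype by Dex interaction gave 7 genes in place of 4, cKO against WT Ctrl 8 in place of 3, and the Dex by IL27 interaction 18 in place of 11. With all 24 libraries in 1 fit the genotype by Dex interaction gave 2, cKO against WT Ctrl 0 and cKO Dex against WT Dex 4 in place of 12. With limma on log2(FPKM + 1) and no filter, cKO against WT Ctrl gave 0, cKO Dex against WT Dex 6, Dex+IL27 against Dex 11 in place of 17, and Dex+IL27 against IL27 7 in place of 11. Apart from the block, these are counts of members without those of all genes under the same setting, so a shift of every gene is not set apart. Causes were not tested.

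Leaving out 1 library at a time gave 6 to 7 genes for WT Dex at day 3, 0 for cKO Dex, 3 to 7 for the genotype by Dex interaction, 0 to 4 for cKO against WT Ctrl, 5 to 14 for cKO Dex against WT Dex, 20 to 21 for Dex at day 9, 25 to 28 for IL27, 28 to 30 for Dex+IL27, 12 to 15 against Dex, 7 to 14 against IL27, 9 to 16 for the Dex by IL27 interaction and 22 to 23 for the contrast of days. These ranges, and the counts given above for single libraries left out, are of members without those of all genes in the same fits. A shift of every gene is thus not set apart in them. Scaling by library totals moved the median of all genes with Dex+IL27 from 0.05 to -0.07. For cKO against WT Ctrl it moved the higher share of all genes' calls from 58.3% to 35.3%, where 2 of the 33 genes stayed called.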

Other observations

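The spread between the 3 libraries of a group differed between groups. The median coefficient of variation over the 32 genes other than Vegfa was 4.40% in WT Ctrl at day 3, 4.66% in Ctrl at day 9 and 19.2% in IL27 at day 9, where Slc2a3 had 40.8%. In the Dex+IL27 group library 3 was the highest for 25 of the 33 genes and library 1 the lowest for 25.

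Enolase isozymes gave another ratio that moved with treatment: Eno2 FPKM was 0.0012 ± 0.00023 (SD, n = 3) times that of Eno1 in Ctrl at day 9, 0.0051 ± 0.00081 with Dex, 0.0022 ± 0.00039 with IL27 and 0.0037 ± 0.00029 with both. The ratio of P4ha2 to P4ha1 was 0.207 ± 0.0354 in Ctrl, 0.386 ± 0.0361 with Dex, 0.581 ± 0.172 with IL27 and 0.641 ± 0.0911 with both. No test was made of these ratios.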
